A study of Danio rerio with 2 samples.

Results

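The *ms4a17a* genes of zebrafish were examined in adult ovaries of *sox3* knockout and wild type fish. The members were chosen by symbol, as all genes whose name starts with *ms4a17a*, and they are 13 of the 22328 genes in the deposited expression table. The family as such was selected on its expression values in both libraries, so its levels are given as a description and no test of them is made. A gene name table used here holds 14 *ms4a17a* identifiers and RefSeq holds 15 *ms4a17a* symbols, and *ms4a17a.14* and *ms4a17a.17* were not analysed here.

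One library was labelled KO, from ovaries of *sox3*-/- adults, and one was labelled WT, from ovaries of wild type adults, both of the AB strain and from crosses of heterozygous fish. RNA of 3 fish of each genotype went into each library, so there is 1 library per genotype and no replicate of either. The study holds a pair of CRISPR/Cas9 lines with frame-shift deletions in *sox3*, and the labels do not name the one that was sequenced. Values are FPKM, fragments per gene after correction for the length of the transcript and the size of the library, with a smallest listed value of 0.01 FPKM that may stand for no reads. The table gives no reads per gene, so the number behind a single value is unknown and no counting interval could be attached to it.

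The targeted gene stood at 2.16 FPKM in the library labelled KO and at 1.18 FPKM in the library labelled WT (SOX3, ENSDARG00000053569). The value was higher in the library labelled KO, whereas RT-qPCR of the gene in the study ran the other way, so it goes against the labels. Since a transcript with a frame-shift deletion can still be sequenced, the value does not settle which library is which. *CYP19A1*, the aromatase gene, was at 1.12 FPKM in the library labelled KO and 2.04 FPKM in the library labelled WT. That is the direction of RT-qPCR of *cyp19a1a* in the study, but 1 low gene does not settle the labels either. The libraries are called by their labels, and every direction in what follows is that of the labels. Both libraries held the transcripts of oocytes at high levels, with all 14 listed oocyte markers at 1 FPKM or more and the egg envelope gene *zp3b* at 978.14 FPKM in the library labelled KO and 1099.71 FPKM in the library labelled WT.

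MS4A genes encode small membrane proteins that cross the membrane 4 times, the source of the name (membrane-spanning 4-domains subfamily A). In mammals the family is known from leukocytes. Its members include the B-cell surface antigen CD20, the beta chain of the high-affinity IgE receptor of mast cells, and MS4A4A of macrophages. Functions of the single zebrafish *ms4a17a* genes are not annotated in the sources used here, so the members are described by level and by place in the gene run and not by role.

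Summed over the 13 genes, *ms4a17a* transcripts were at 33.9 FPKM in the library labelled KO and 1.43 FPKM in the library labelled WT, which is 23.7-fold higher or 4.57 on the log2 scale. The sum takes together any reads that were divided among similar copies. All 13 genes were listed above the smallest value in the library labelled KO, against 7 of them in the library labelled WT. Of all 22328 listed genes, 20575 were above it in the library labelled KO and 20999 in the library labelled WT. At 1 FPKM or more there were 5 members in the library labelled KO and 0 in the library labelled WT. Among all listed genes, 12601 reached 1 FPKM in the library labelled KO and 12747 in the library labelled WT. In bulk ovary RNA, more cells of a type that carries these transcripts and more transcript per cell cannot be told apart.

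*ms4a17a.8* (ENSDARG00000043802) carried most of the family sum in the library labelled KO. It was at 22.12 FPKM in the library labelled KO and 0.18 FPKM in the library labelled WT, 123-fold higher. Its level was above that of 78.9% of all listed genes in the library labelled KO and above that of 21.6% in the library labelled WT. On the scale of log2(FPKM + 0.1), used for ratios here, its difference was 6.31 and ranked 17 among the 13455 genes that reached 1 FPKM in at least one library. Of the 762 genes from 20 to under 25 FPKM in the library labelled KO, a range chosen after this value was seen, *ms4a17a.8* was the 1 gene at 0.2 FPKM or less in the library labelled WT. In the other direction the count was 0 of 770 genes. Both the range and the limit of 0.2 FPKM enclose the values of *ms4a17a.8* itself, so these counts are a description and no test.

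The genes next in level were mostly those at the far end of the gene run. *ms4a17a.12* (ENSDARG00000053563) was at 3.26 FPKM in the library labelled KO and listed at 0.01 FPKM in the library labelled WT, so no fold is given. *ms4a17a.6* (ENSDARG00000007018) was at 2.49 FPKM in the library labelled KO and 0.1 FPKM in the library labelled WT, 24.9-fold higher. *ms4a17a.4* (ENSDARG00000014024) was at 1.7 FPKM in the library labelled KO and 0.11 FPKM in the library labelled WT, 15.5-fold higher. The gene between the last pair, *ms4a17a.10* (ENSDARG00000095695), differed less, with 0.64 FPKM in the library labelled KO and 0.19 FPKM in the library labelled WT, 3.37-fold higher.

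Between *ms4a17a.8* and *ms4a17a.6* stand 5 genes that were all listed at 0.01 FPKM in the library labelled WT. *ms4a17a.5* (ENSDARG00000092204) had 1.58 FPKM in the library labelled KO and *ms4a17a.2* (ENSDARG00000105674) had 0.76 FPKM there. The gene models of *ms4a17a.8* and *ms4a17a.5*, and of *ms4a17a.5* and *ms4a17a.2*, overlap in RefSeq. That assembly is not the one of the FPKM values, where overlap was not examined. A strand setting of the counting is not stated, so reads of these 3 genes may not be fully separated if the models overlap there too. The others were low in the library labelled KO as well, with *ms4a17a.7* (ENSDARG00000043796) at 0.15 FPKM and *ms4a17a.1* (ENSDARG00000043798) and *ms4a17a.3* (ENSDARG00000091970) at 0.14 FPKM each. Such a pair of values is frequent at this level. Of the 1840 genes from 0.1 to under 0.2 FPKM in the library labelled KO, 20.1% were listed at 0.01 FPKM in the library labelled WT, and the share was 26.3% of 1885 genes in the other direction. At 1 to under 2 FPKM in the library labelled KO, the level of *ms4a17a.5*, it was 1.46% of 1506 genes, and at 2 to under 5 FPKM, the level of *ms4a17a.12*, 0.817% of 2081 genes.

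The 3 remaining members did not share the difference. *ms4a17a.16* (ENSDARG00000054898) was at 0.61 FPKM in the library labelled KO and 0.39 FPKM in the library labelled WT. *ms4a17a.11* (ENSDARG00000094809) was the only member with a lower value in the library labelled KO, at 0.27 FPKM against 0.36 FPKM in the library labelled WT. *ms4a17a.9* (ENSDARG00000094854) was listed at 0.04 FPKM in both. All of these values are low, and none of the 3 genes was 2-fold apart.

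The make-up of the family differed between the libraries. In the library labelled KO, *ms4a17a.8* held 65.3% of the family sum, *ms4a17a.12* held 9.62% and *ms4a17a.6* held 7.35%. In the library labelled WT the largest shares were those of *ms4a17a.16*, with 27.3%, and *ms4a17a.11*, with 25.2%, and *ms4a17a.8* held 12.6%. These last shares are parts of a sum of 1.43 FPKM, and 0.06 FPKM of it comes from the 6 genes listed at 0.01 FPKM. Without *ms4a17a.8* the other 12 genes summed to 11.78 FPKM in the library labelled KO and 1.25 FPKM in the library labelled WT, 9.42-fold higher.

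**Figure D1:**
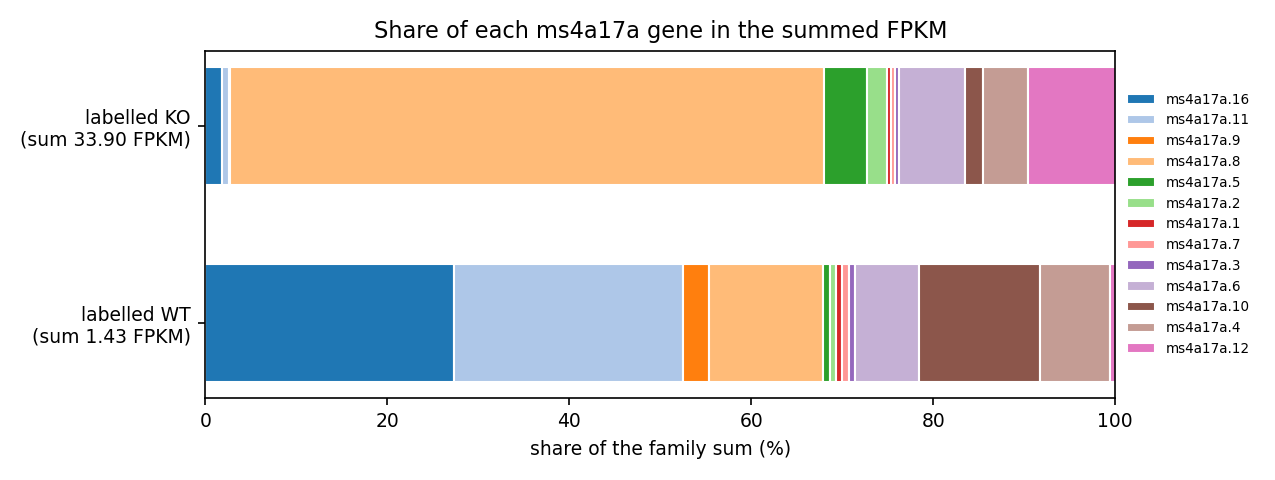
Share of each *ms4a17a* gene in the summed FPKM of the family, as a percentage on the horizontal axis, with the library labelled KO above and the library labelled WT below. Segments follow the order of the genes in the run. *ms4a17a.8* takes 65.3% of the upper bar and 12.6% of the lower one, whose total is only 1.43 FPKM.

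Counted by size, the 5 members that reached 1 FPKM in one of the libraries all had a difference of 2-fold or more upward in the library labelled KO and 0 had one downward, where 6.34% of the 13455 genes of this level were higher and 7.89% lower. These 5 passed the level only through the library in which they were high, so their direction was fixed by the filter, though not the size. Nothing is read from the count. Their log2 ratios ranged from 3.10 to 6.31 with a median of 3.93. The median over all genes at this level was -0.02, but the same filter raises that of the 5 members, so nothing is read from the contrast. Over all 13 members without a limit on level, 10 were at least 2-fold higher and 0 lower on this scale, where 8.33% of all listed genes were higher and 11.8% lower, and the median was 1.35. With a pseudocount of 1 FPKM the 10 became 5. Leaving out genes with 0.01 FPKM in the library labelled WT from the 5 gave a median of 3.69. With 1 library per genotype the variation among fish is unknown, and none of these differences carries a p-value.

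**Figure D2:**
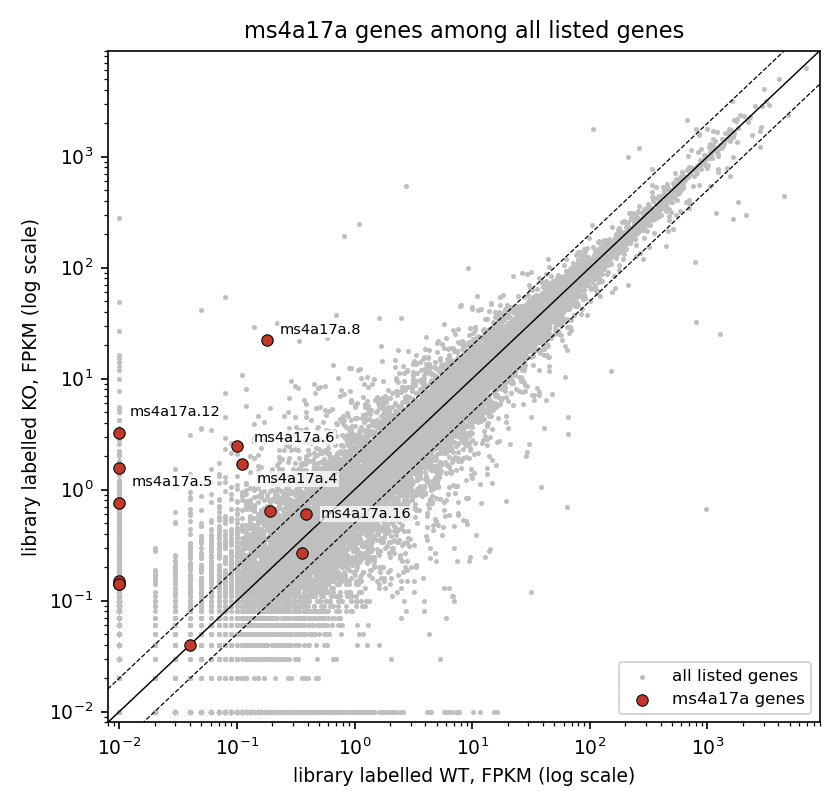
FPKM of each listed gene in the library labelled KO (vertical, log scale) against the library labelled WT (horizontal, log scale). Grey points are all 22328 genes, red points the 13 *ms4a17a* genes, the solid line marks equal values and the dashed lines a 2-fold difference. *ms4a17a.8* stands at 22.12 FPKM in the library labelled KO against 0.18 FPKM in the library labelled WT, and 6 members lie on the left edge at 0.01 FPKM in the library labelled WT, where the points of *ms4a17a.1* and *ms4a17a.3* coincide.

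The genes that differed stand next to each other. The gene order of RefSeq is from another assembly than that of the files and was used only for order, neighbours and overlaps of gene models. In it, all *ms4a17a* genes lie in a single run on chromosome 4, broken only by 2 non-coding genes. From one end the listed members follow as *ms4a17a.16*, *ms4a17a.11*, *ms4a17a.9*, *ms4a17a.8*, *ms4a17a.5*, *ms4a17a.2*, *ms4a17a.1*, *ms4a17a.7*, *ms4a17a.3*, *ms4a17a.6*, *ms4a17a.10*, *ms4a17a.4* and *ms4a17a.12*. The first 3, up to *ms4a17a.9*, summed to 0.92 FPKM in the library labelled KO and 0.79 FPKM in the library labelled WT. The 10 genes from *ms4a17a.8* on summed to 32.98 FPKM in the library labelled KO and 0.64 FPKM in the library labelled WT, and each of the 10 had a higher value in the library labelled KO. This division of the run was made after the values were seen and is a description.

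The difference reached past the family on one side. The gene that follows *ms4a17a.12*, si:ch73-56d11.5 (ENSDARG00000093546), was at 15.39 FPKM in the library labelled KO and listed at 0.01 FPKM in the library labelled WT. Among the 10 RefSeq genes that follow the run it is the only one whose symbol matched a listed gene. The next listed gene beyond them, si:dkey-240n22.1, was at 0.13 FPKM in the library labelled KO and 0.08 FPKM in the library labelled WT, and zgc:173770 after it was almost equal, at 1338.65 FPKM in the library labelled KO and 1383.85 FPKM in the library labelled WT.

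Among the 10 genes before the run, 7 are listed, and their differences were smaller than that of si:ch73-56d11.5 and of both signs. The nearest, *ftr51*, a member of the finTRIM family of fish, was at 0.08 FPKM in the library labelled KO and 0.22 FPKM in the library labelled WT. Of the others, zgc:113209 was at 18.3 FPKM in the library labelled KO and 4.27 FPKM in the library labelled WT, 4.29-fold higher. The low gene si:ch1073-398c20.3 was at 0.52 FPKM in the library labelled KO and 0.15 FPKM in the library labelled WT. These were the 2 genes on that side that were at least 2-fold higher on the log2(FPKM + 0.1) scale, and 0 were as far apart in the other direction, beside the 8.33% and 11.8% of all listed genes. The neighbour zgc:153116 had 7.07 FPKM in the library labelled KO and 4.4 FPKM in the library labelled WT, a 1.61-fold difference. Similarly, zgc:172128 had 2.34 FPKM in the library labelled KO and 1.57 FPKM in the library labelled WT, and zgc:123107 had 1.57 FPKM in the library labelled KO and 0.93 FPKM in the library labelled WT. The gene zgc:113119 had 0.89 FPKM in the library labelled KO and 1.05 FPKM in the library labelled WT.

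**Figure D3:**
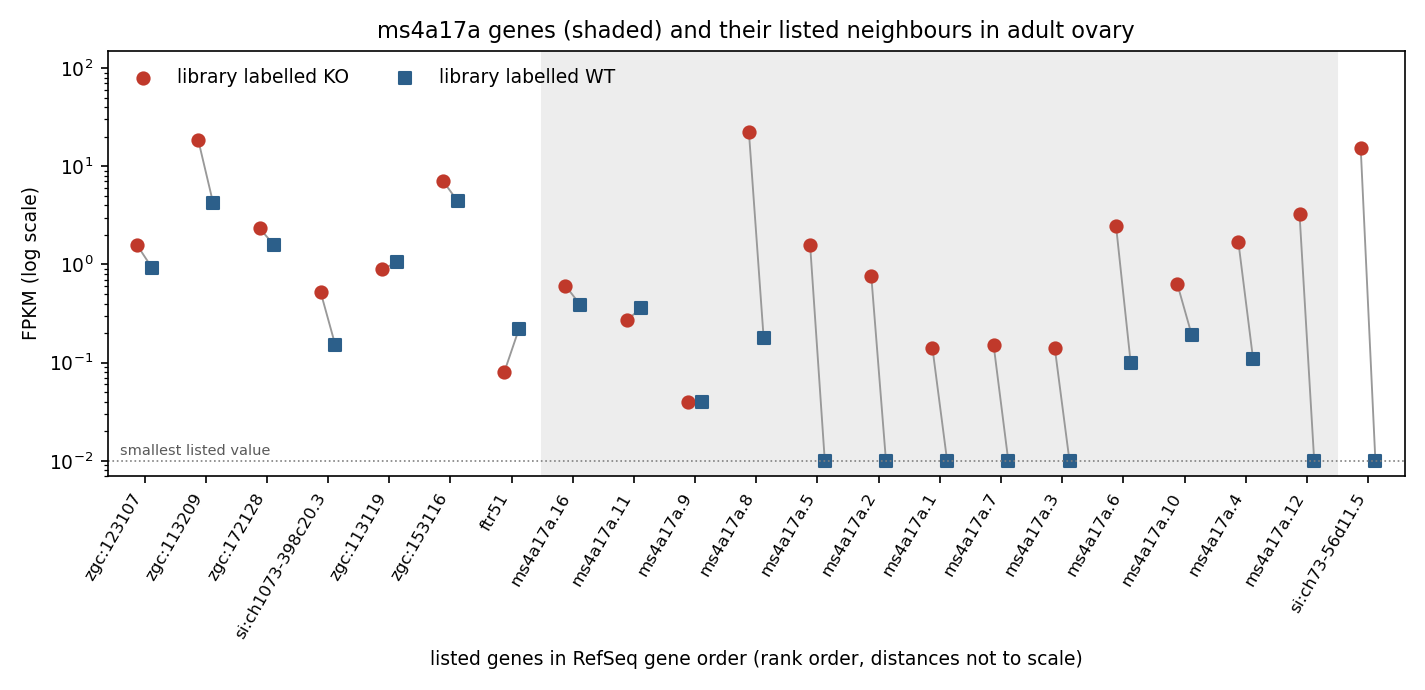
FPKM on a log scale of the 13 listed *ms4a17a* genes (shaded) and their 8 listed neighbours in RefSeq gene order, with the library labelled KO as circles and the library labelled WT as squares. Lines join the values of one gene, and the dotted line marks the smallest listed value of 0.01 FPKM. From *ms4a17a.8* to si:ch73-56d11.5 every circle lies above its square, while *ms4a17a.11*, zgc:113119 and *ftr51* have the opposite order.

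Symbols placed 8078 of the listed genes in this order, and runs of consecutive placed genes at least 2-fold apart in one direction on the log2(FPKM + 0.1) scale were counted on all chromosomes. The run from *ms4a17a.8* to si:ch73-56d11.5 held 11 genes and summed to 48.37 FPKM in the library labelled KO and 0.65 FPKM in the library labelled WT. The next longest run held 6 genes, on chromosome 7, which were lower in the library labelled KO, with 1.96 FPKM in it and 7.19 FPKM in the library labelled WT. There were 4 runs of 5 or more genes in all, and that of the *ms4a17a* genes was the only one of them higher in the library labelled KO. As the family was chosen with its values known, the length of its run is no test. In it, *ms4a17a.1*, *ms4a17a.7* and *ms4a17a.3* were at 0.14 to 0.15 FPKM against 0.01 FPKM, a pair of values that is frequent at this level. The length depends on the pseudocount. With 1 FPKM in place of 0.1 FPKM the longest run with *ms4a17a* genes held 3 genes, from *ms4a17a.4* to si:ch73-56d11.5, and the longest elsewhere held 4. Listed genes that could not be placed may lie between the genes of a run.

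Other gene families with numbered copies differed less in their sums. Among the 11 families with 5 or more listed genes whose symbols are a stem followed by a number, *ms4a17a* had the highest ratio of sums, 4.57 on the log2 scale. The other 10 ranged from -2.53 to 0.58, with a median of -0.06. The *zp2* genes of the egg envelope, for example, summed to 11912.59 FPKM in the library labelled KO and 12292.73 FPKM in the library labelled WT. Single *zp2* genes moved more than their sum, with log2 ratios from -1.03 to 4.06. Of these 5 genes 1 was at least 2-fold higher and 1 lower, beside 6.34% and 7.89% of all genes at 1 FPKM or more. The *mfap4* genes, some of which are expressed by macrophages, had 23.64 FPKM in the library labelled KO and 76.9 FPKM in the library labelled WT. Since *ms4a17a* was chosen with its values known, its place in this order is no test.

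**Figure D4:**
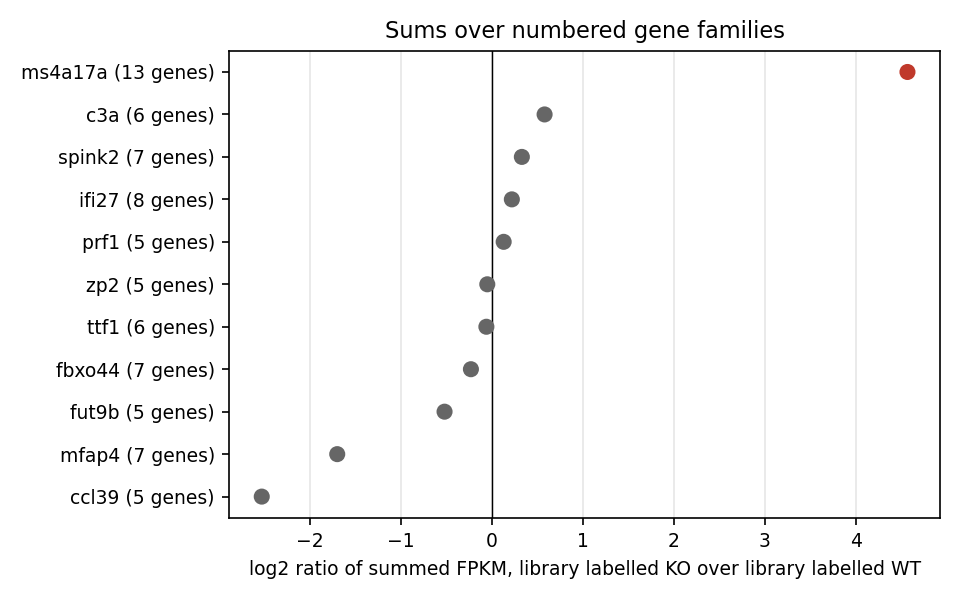
Log2 ratio of summed FPKM, library labelled KO over library labelled WT, for the 11 numbered gene families with 5 or more listed genes. Each point is 1 family without a replicate, and the red point is *ms4a17a* at 4.57, while the other 10 lie between -2.53 and 0.58.

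One other *ms4a* gene is listed, *ms4a17c.2* (ENSDARG00000028659), at 0.14 FPKM in the library labelled KO and 0.01 FPKM in the library labelled WT. CD20 and the IgE receptor beta chain are associated in mammals with B-cell receptor and Fc receptor signalling. Of the 13 names sought for these pathways, *cd79a*, *cd79b* and *vav1* matched no listed symbol, so both signalling chains of the B-cell receptor are missing. The 10 listed genes of these pathways summed to 29.29 FPKM in the library labelled KO and 29.22 FPKM in the library labelled WT, and of the 3 at 1 FPKM or more none was 2-fold apart. Without a limit on level, 3 were at least 2-fold higher (*PTPN6*, *lat* and *fcer1g*) and 1 lower (*lcp2a*), all of them under 1 FPKM. Of all listed genes, 8.33% were at least 2-fold higher and 11.8% lower. The kinase gene *LYN* made up most of these sums, with 24.47 FPKM in the library labelled KO and 24.95 FPKM in the library labelled WT. The phospholipase gene *PLCG2* was at 1.55 FPKM in the library labelled KO and 1.99 FPKM in the library labelled WT. The Fc receptor gamma chain genes were low, with *fcer1gl* at 1.78 FPKM in the library labelled KO and 1.18 FPKM in the library labelled WT. *fcer1g* was at 0.21 FPKM in the library labelled KO and listed at 0.01 FPKM in the library labelled WT.

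Markers of leukocytes were examined because mammalian MS4A genes are expressed in these cells. The 24 listed macrophage genes summed to 74.69 FPKM in the library labelled KO and 61.95 FPKM in the library labelled WT, and of the 13 at 1 FPKM or more 2 were at least 2-fold higher and 3 lower in the library labelled KO, beside 6.34% and 7.89% of all genes of this level. *apoeb*, an apolipoprotein E gene, was at 46.13 FPKM in the library labelled KO and 17.29 FPKM in the library labelled WT, and the scavenger receptor gene *marco* was at 3.39 FPKM in the library labelled KO and 1.4 FPKM in the library labelled WT. Without *apoeb* the sum was 28.56 FPKM in the library labelled KO and 44.66 FPKM in the library labelled WT, so the direction of the sum rests on that gene. All 3 lower genes stand under the symbol MFAP4. They were at 0.01, 0.25 and 1.96 FPKM in the library labelled KO and 6.34, 9.63 and 6.32 FPKM in the library labelled WT. Other MFAP4 genes had 2.64 and 0.26 FPKM in the library labelled KO and 2.34 and 0.01 FPKM in the library labelled WT. The 7 numbered *mfap4* genes, at 23.64 FPKM in the library labelled KO and 76.9 FPKM in the library labelled WT, are other genes and are not in this list. The macrophage sum thus also depends on which *mfap4* genes are counted. Of the 24 genes, 13 had a higher and 9 a lower value in the library labelled KO, beside 9916 and 11774 of all 22328 listed genes. The general leukocyte gene *CORO1A* differed little, at 1.58 FPKM in the library labelled KO and 1.52 FPKM in the library labelled WT. The leukocyte genes *LCP1*, *ptprc* and *IRF8* were lower. They were at 0.81, 0.43 and 0.43 FPKM in the library labelled KO and 1.1, 0.64 and 0.59 FPKM in the library labelled WT. *SPI1*, the gene of the myeloid transcription factor PU.1, was at 3.08 FPKM in the library labelled KO and 2.47 FPKM in the library labelled WT.

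Lists of other leukocytes differed in the direction of their sums, and each held genes of both directions. In the library labelled KO the sum was higher for B cells and for T and NK cells and lower for neutrophils. The 7 listed B-cell genes summed to 7.71 FPKM in the library labelled KO and 2.48 FPKM in the library labelled WT, and most of the difference was *igic1s1*, an immunoglobulin light chain gene, at 4.28 FPKM in the library labelled KO and listed at 0.01 FPKM in the library labelled WT. Of the 2 at 1 FPKM or more, *igic1s1* was at least 2-fold higher and 0 were lower. Among all genes of this level, 6.34% were higher and 7.89% lower. The other, *EBF1* (ENSDARG00000099849), was at 2.09 FPKM in the library labelled KO and 1.1 FPKM in the library labelled WT. Another gene listed as *EBF1* (ENSDARG00000069196) was at 0.06 FPKM in the library labelled KO and 0.18 FPKM in the library labelled WT. *PAX5*, the transcription factor that defines B cells, was at 0.49 FPKM in the library labelled KO and 0.51 FPKM in the library labelled WT. The 6 neutrophil genes summed to 8.79 FPKM in the library labelled KO and 15.57 FPKM in the library labelled WT. Of the 5 at 1 FPKM or more, the lysozyme gene *lyz* was at least 2-fold higher and *mmp13a* and *NCF1* at least 2-fold lower. Of all genes of this level, 6.34% were at least 2-fold higher and 7.89% lower. The 9 genes of T and NK cells summed to 51.81 FPKM in the library labelled KO and 30.75 FPKM in the library labelled WT, of which *EOMES* made up 42.38 FPKM in the library labelled KO and 24.71 FPKM in the library labelled WT. *EOMES* is also an oocyte transcript in fish. Of the 3 genes at 1 FPKM or more 1 was at least 2-fold higher and 0 lower, beside 6.34% and 7.89% of all genes of this level. The higher one was the transcription factor gene *TCF7*, at 6.29 FPKM in the library labelled KO and 2.67 FPKM in the library labelled WT. The T-cell kinase gene *ZAP70* was lower, at 0.74 FPKM in the library labelled KO and 1.26 FPKM in the library labelled WT. Another T-cell kinase gene, *lck*, was at 0.19 FPKM in the library labelled KO and 0.14 FPKM in the library labelled WT. The part of any of these cells in the *ms4a17a* difference was not tested.

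Markers of the other cells of the ovary were closer between the libraries than *ms4a17a* in their sums. Because *ms4a17a* was chosen with its values known, this contrast is no test. The 9 epithelial genes summed to 763.24 FPKM in the library labelled KO and 758.02 FPKM in the library labelled WT. Most of this was *epcam*, at 664.39 FPKM in the library labelled KO and 635.74 FPKM in the library labelled WT. Which cells of the ovary, oocytes included, carried it was not tested. The 9 endothelial genes summed to 6.45 FPKM in the library labelled KO and 5.37 FPKM in the library labelled WT. Both sums turned without the most abundant gene of the list. Without *epcam* the epithelial sum was 98.85 FPKM in the library labelled KO and 122.28 FPKM in the library labelled WT, and without *kdrl* the endothelial sum was 4.24 FPKM in the library labelled KO and 4.38 FPKM in the library labelled WT. Of the 4 endothelial genes at 1 FPKM or more 2 (*kdrl* and *FLI1*) were at least 2-fold higher and 0 lower. Of the 7 epithelial genes at this level 0 were at least 2-fold higher and 1 (*krt5*) lower. Among all genes of this level, 6.34% were higher and 7.89% lower. *FLI1* was at 1.17 FPKM in the library labelled KO and 0.52 FPKM in the library labelled WT, and *krt5* at 0.43 and 1.7 FPKM. The 9 genes of erythrocytes and thrombocytes had 26 FPKM in the library labelled KO and 15.18 FPKM in the library labelled WT. Without *hbaa1* they had 2.95 FPKM in the library labelled KO and 2.38 FPKM in the library labelled WT. Granulosa and theca cells, which make the steroids of the follicle, had 14 listed genes with 291.83 FPKM in the library labelled KO and 207.48 FPKM in the library labelled WT. Most of these sums was *CYP11A1* (ENSDARG00000002347), *hsd3b2* and *CYP17A1*. Which cells of the ovary carried these transcripts was not tested, so the sums are not a measure of granulosa and theca cells alone. Counted by gene, 10 of the 14 were lower in the library labelled KO, with a median log2 ratio of -0.36. Of the 8 at 1 FPKM or more 0 were at least 2-fold higher and 2 lower, beside 6.34% and 7.89% of all genes of this level. The 2 lower genes were the cholesterol transport gene *STAR* and a gene listed as *FOXL2* (ENSDARG00000068417). *STAR* was at 0.46 FPKM in the library labelled KO and 1.88 FPKM in the library labelled WT. This *FOXL2* gene was at 1.47 FPKM in the library labelled KO and 3.61 FPKM in the library labelled WT. The aromatase gene *CYP19A1* was at 1.12 FPKM in the library labelled KO and 2.04 FPKM in the library labelled WT. The 14 oocyte genes had 10322.59 FPKM in the library labelled KO and 13587.86 FPKM in the library labelled WT. Without *zp2.2* they had 7934.51 FPKM in the library labelled KO and 8726.21 FPKM in the library labelled WT. The median log2 ratio of the 14 was -0.11.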

How the data were processed

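Ovary poly(A) RNA, 1 library per genotype, was sequenced by the authors on a BGISEQ-500. Reads were aligned by HISAT to the genome and by Bowtie2 to the reference genes, and RSEM gave the deposited FPKM values, which are scaled for transcript length and library size. GRCz10 is the build in the submitters' processing notes, and versions of these tools were not stated. The table holds no reads per gene, so the depth of a gene's value is unknown (library totals stated by the study were not used here), and reads of similar copies may have been divided among them by RSEM. Both value columns were matched to a sample by name.

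Symbols were found for 20336 of 22328 identifiers. Log2 ratios used a pseudocount of 0.1 FPKM, which understates differences of low genes. Ratios of sums had none, and no fold is given against 0.01 FPKM. Genes were counted at 2-fold or more where one library had 1 FPKM. The genes named are every member, *sox3*, other *ms4a* genes, neighbours within 10 genes of the run, and up to 4 members of each marker list with the largest ratios at 1 FPKM or more. Not every marker gene within this limit is named. Neighbours under 1 FPKM or beyond 10 genes, *zp3b*, *marco*, *CORO1A*, *SPI1*, the MFAP4 genes that were not lower, *PAX5*, *lck*, *fcer1g*, *PTPN6*, *lat*, *lcp2a*, *CYP11A1*, *hsd3b2* and the *zp2* and *mfap4* sums were named after their values were seen. The same holds for *epcam*, *LCP1*, *ptprc*, *IRF8* and the *EBF1* gene under 1 FPKM. The members and lists were chosen with earlier results of these data known. Gene sequences were not used here. Counting was tested on simulated data, with changes planted only in genes far above the members' levels in the library labelled WT. It was not tested at the low values of the members. Alternatives were other pseudocounts, scalings, limits on level and fold thresholds, and leaving out each member. Computations used Python 3.11.15, numpy 2.4.6, pandas 2.3.3 and matplotlib 3.10.9.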

Additional observations from a re-analysis of the deposited data

How the results depend on the processing

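No setting reversed a value called 2-fold apart, and the count of members at least 2-fold lower was 0 under every alternative run. Without replicates, a log2 value was taken as moved when it changed by over 1.5-fold. The family sum ratio of 4.57 became 3.24 without *ms4a17a.8*, and lay between 3.24 and 5.0 when each of the 13 members was left out in turn. Summed over members at 5 FPKM or more it was 6.94, which is *ms4a17a.8* alone. The median of 3.93 became 6.31 with a pseudocount of 0.01 FPKM and 1.67 with 1 FPKM, and it was 2.16, 6.31 and 1.35 over members at 0.1 FPKM or more, at 5 FPKM or more and without a limit. The count of 5 members at least 2-fold higher became 10 at 0.1 FPKM or more and 10 without a limit, and 1 at 5 FPKM or more. It was 5 under both other pseudocounts, both scalings, and thresholds of 1.4-fold and 4-fold. Scaling by a trimmed mean or by the median of ratios used a shift of only -0.02 on the log2 scale. The log2 difference of *ms4a17a.8* ranged from 4.29 to 6.86 over pseudocounts and scalings. Of 52 member ratios under other pseudocounts and scalings, 18 moved by over 1.5-fold. The alternatives that follow were chosen after seeing the data. Without a limit on level, the count of members at least 2-fold higher was 10 with a pseudocount of 0.01 FPKM and 5 with 1 FPKM. The run of 11 genes became 3 with a pseudocount of 1 FPKM and was 11 with 0.01 FPKM. Adding si:ch73-56d11.5 to the sum gave 5.1. No paired analysis was possible because each genotype has 1 library. The missing reads per gene limit what can be said of members under 0.2 FPKM.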
